A study of Rattus norvegicus with 19 samples.

Results

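Resting cultures of rat cortical neurons were compared with resting cultures of rat striatal neurons at transcriptionally active putative enhancers (TAPEs), which are intergenic stretches of open chromatin that give rise to RNA from both strands. The comparison used 7 of the 19 RNA libraries, 3 from cortex and 4 from striatum. Its members were the 1870 TAPEs, of 27538 in the deposited table (6.79%), whose level averaged at least 0.05 over the 19 libraries. The level is CPKM, the reads of a TAPE scaled to its length in kilobases and to the total of the library. Of these, 474 differed between the regions, 237 with more RNA in cortex and 237 with more in striatum.

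Cortex (vehicle) and striatum (vehicle) were cultures of embryonic day 18 Sprague-Dawley rat brain kept for 11 days in vitro and then given Neurobasal medium for 1 h. These are primary cultures, in which neurons are mixed with glia and dividing cells, and in bulk RNA fewer cells of a type and less RNA per cell cannot be told apart. The libraries were stranded, ribosome-depleted total RNA, so they hold RNA without a poly(A) tail. Replicates are separate samples by their labels, and no source used here ties them to separate litters, so the p-values measure the spread between these samples. The test used (limma) pools that spread in part over all tested TAPEs or genes. Hippocampus (vehicle, n = 3) and the cultures depolarised with potassium chloride (KCl, n = 3 for cortex and 3 for striatum) are given beside the comparison. For KCl the sample labels give 25 mM, the series text 10 mM.

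Cortical and striatal neurons arise from opposite parts of the embryonic telencephalon. The cortex comes mainly from the pallium, whose progenitors pass through a programme of Neurog and Neurod basic helix-loop-helix factors and make glutamatergic neurons. The striatum comes from the subpallium, where Gsx2 and the Dlx homeobox factors set up GABAergic neurons, most of which become medium spiny neurons with dopamine receptors and the phosphatase inhibitor DARPP-32 (Ppp1r1b). Enhancers are switched on in a cell type selective manner, and an active enhancer is commonly transcribed into short, unstable enhancer RNA.

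The third cortical library needs a caution. Its title and the series text call it cortical, while its source and tissue labels say striatal, and it was grouped by its title. Its gene profile, in SD units over the 19 libraries, lay with the other cortical libraries, at 0.70 against 0.96 and 0.93 for Neurod6, a pallial neuron factor, for which the 4 striatal libraries all lay at -1.26, and -0.72 against -0.70 and -0.70 for Dlx5, a subpallial factor, for which the striatal libraries lay between 0.43 and 0.59. With the call made from the other 6 libraries, 380 TAPEs differed, and at 318 of them (83.7%) the third library lay nearer to the other cortical libraries than to the striatal mean. Without it 167 TAPEs were higher in cortex and 213 in striatum, of which 163 and 188 were among those called with it. Library totals were worked back from the steps between the deposited CPKM values. They came to 62.4 to 72.5 M reads for the cortical libraries and 49.6 to 58.0 M for the striatal ones. All of these totals lie above the range of reads per sample that the paper states. TAPEs took 0.103 to 0.124% and 0.110 to 0.116% of these totals. A tested TAPE had a median of 12 reads in a library.

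The sequences shown first belong to genes beside which the differences lay. For 4 of the transcription factor or RNA-processing genes named below the RefSeq promoter (250 bases before to 50 after the start, build GRCr8, which is not the Rn6 build of the TAPE coordinates) is printed 5′ to 3′ on the gene's own strand. They are shown because each is the gene nearest to called TAPEs and differed in the same direction as they did. Nr2f1, higher in cortex, starts in chr2:9785875-9786174 (minus strand), and Rpp25, Gsx2 and Sp9, higher in striatum, in chr8:66803012-66803311 (plus), chr14:33480271-33480570 (minus) and chr3:78554095-78554394 (plus). Capitals mark 3 motifs searched on both strands, the TATA box TATAAA, the homeodomain core TAATTA and the neuronal E-box CATCTG, and no marked motif overlaps another.
Nr2f1: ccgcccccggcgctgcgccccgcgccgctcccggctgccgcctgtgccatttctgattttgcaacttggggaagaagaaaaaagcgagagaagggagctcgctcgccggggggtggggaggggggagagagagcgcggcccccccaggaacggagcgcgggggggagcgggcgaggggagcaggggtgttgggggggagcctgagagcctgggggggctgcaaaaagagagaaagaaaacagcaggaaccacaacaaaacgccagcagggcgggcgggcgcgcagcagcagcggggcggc
Rpp25: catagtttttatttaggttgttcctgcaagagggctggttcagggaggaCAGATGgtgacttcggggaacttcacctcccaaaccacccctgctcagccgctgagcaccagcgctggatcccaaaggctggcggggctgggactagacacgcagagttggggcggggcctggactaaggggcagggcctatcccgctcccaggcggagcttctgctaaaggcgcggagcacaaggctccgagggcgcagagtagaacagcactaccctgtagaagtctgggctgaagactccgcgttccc
Gsx2: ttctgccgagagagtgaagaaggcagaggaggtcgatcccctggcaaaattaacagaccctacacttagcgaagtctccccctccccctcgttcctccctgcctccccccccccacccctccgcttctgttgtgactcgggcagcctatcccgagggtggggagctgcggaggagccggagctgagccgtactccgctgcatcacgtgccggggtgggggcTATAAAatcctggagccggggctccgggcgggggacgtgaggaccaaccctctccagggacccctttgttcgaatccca
Sp9: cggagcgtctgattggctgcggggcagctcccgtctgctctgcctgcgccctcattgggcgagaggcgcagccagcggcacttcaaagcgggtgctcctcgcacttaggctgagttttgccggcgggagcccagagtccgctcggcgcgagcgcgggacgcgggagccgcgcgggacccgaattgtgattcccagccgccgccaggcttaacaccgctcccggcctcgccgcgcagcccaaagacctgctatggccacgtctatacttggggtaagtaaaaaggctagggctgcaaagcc
Rpp25 held 1 E-box, read on the other strand as CAGATG, and Gsx2 held 1 TATA box. The Nr2f1 and Sp9 windows held none of the 3 motifs, which says only that these letters are not in the window. Among all 33469 promoter windows of this length, 14.2% held TATAAA, 5.36% held TAATTA and 16.6% held CATCTG on either strand.

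On the log2(CPKM + 0.05) scale, with differences given as cortex minus striatum, 237 TAPEs were higher in cortex and 237 higher in striatum by limma at an adjusted p under 0.05, 12.7% of the tested TAPEs in each direction, and the 7 values did not overlap between the regions at 215 and 219 of them, against 14.2% and 16.6% of all tested TAPEs that did not overlap in that direction. The median difference was 1.14 for the cortical side and 1.09 for the striatal side, as sizes. Adding 0.05 makes these differences too small for TAPEs of low level. It passed 2, a 4-fold change, at 17 and 22 TAPEs. Most called TAPEs had some reads in the other region. It averaged under 0.05 CPKM at 114 of the cortex-higher and 113 of the striatum-higher TAPEs, and had no read at all at 12 and 6. The filter on the mean was passed only through the libraries of the higher region at 53 and 105 called TAPEs, which averaged under 0.05 over the libraries of the other regions and so had to be high where they were called. Just inside the filter were TAPEs with a mean CPKM of 0.05003 and 0.05004 (0.0165 and 0.0470 in cortex, 0.108 and 0.0774 in striatum), and just outside it TAPEs of 0.0499994 and 0.0499982 (0.0469 and 0.0286 in cortex, 0.0589 and 0.0787 in striatum). Leaving out each library in turn kept 133 cortex-higher and 122 striatum-higher TAPEs in all 7 repeats.

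**Figure D1:**
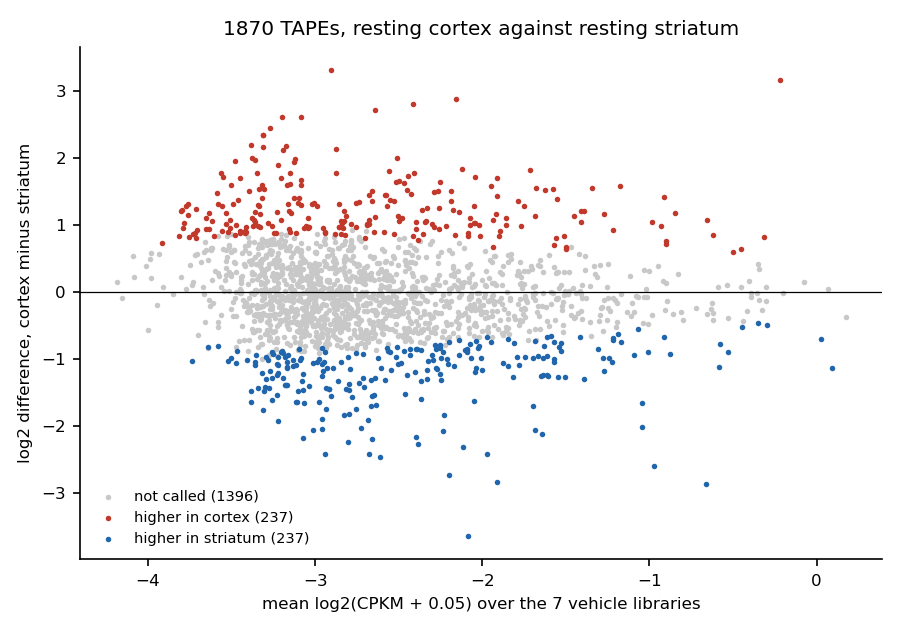
Each point is 1 of the 1870 tested TAPEs, with its mean log2(CPKM + 0.05) over the 7 vehicle libraries on the horizontal axis and the log2 difference, cortex minus striatum, on the vertical axis. The 237 TAPEs called higher in cortex (red) and the 237 called higher in striatum (blue) spread over low and high levels on either side of 0, and the grey TAPEs were not called.

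A clear cortical TAPE next to a known gene lay beside Bhlhe22. Bhlhe22 is a basic helix-loop-helix factor of pallial projection neurons. At the TAPE chr2:102680053-102681830, whose centre is 4572 bp upstream of the start of Bhlhe22 (distances to genes are measured in the same way throughout), CPKM was 0.298, 0.271 and 0.276 in the cortical libraries and 0, 0, 0.0194 and 0 in the striatal ones. Among the striatal libraries only replicate 6 held reads there, 2 in all (log2 difference 2.61, SE 0.30, limma adjusted p = 1.54e-06). Hippocampus had 0.234 ± 0.101 CPKM (SD, n = 3), close to cortex. The deposited Pearson correlation of this TAPE with Bhlhe22 over the 19 libraries was 0.88, and the Bhlhe22 profile itself was higher in cortex by 1.91 SD units, SE 0.13, limma adjusted p = 9.18e-05. Eomes is a factor of intermediate progenitors. Of 4 tested TAPEs nearest to it, 1 (chr8:126899002-126901273) was called, higher in cortex, but overlapped between the regions, since its value of 0.151 in striatal replicate 4 lay within the 0.121 to 0.184 of cortex, and its call (adjusted p = 0.0442) was lost without any 1 of 6 libraries, with adjusted p up to 0.160.

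The TAPE with the smallest adjusted p was also the most transcribed one on the cortical side. It lay at chr8:28841568-28844421, 388 kb from Spata19 and 611 kb from Opcml, a neuronal cell adhesion molecule. There CPKM was 2.83, 3.26 and 2.81 in the cortical libraries and 0.247, 0.353, 0.206 and 0.363 in the striatal ones, 10.2 times as much in cortex (log2 difference 3.17, SE 0.18, limma adjusted p = 1.57e-11). Hippocampus was higher still, at 5.55, 5.55 and 5.69. Opcml, with a deposited correlation of 0.87, was higher in cortex by 2.02 SD units, SE 0.17, limma adjusted p = 0.000158, while Spata19, the nearest gene, was not called (-0.08 SD units, adjusted p = 0.948). Opcml was picked as the best correlated gene over libraries that include those compared. That such a gene shares the direction of its TAPE is largely fixed by the choice, here and below. The other highly transcribed cortical TAPEs differed by less. At chr7:124669911-124674064, 8307 bp upstream of Mpped1, a metallophosphoesterase gene, CPKM was 0.830, 0.790 and 1.19 in the cortical libraries and 0.335, 0.378, 0.432 and 0.516 in the striatal ones (log2 difference 1.08, SE 0.19, limma adjusted p = 0.000278). Mpped1 had a deposited correlation of 0.93 with it and was higher in cortex by 1.93 SD units (adjusted p = 9.18e-05), and hippocampus lay below both regions at 0.0820 ± 0.0220 (SD, n = 3). At chr17:74780284-74782231, the nearest gene to which is the RNA-binding factor Celf2 571 kb away, cortex averaged 0.905 ± 0.258 and striatum 0.30 ± 0.0440 (SD, n = 3 and 4). At chr17:78127919-78130744, nearest to Fam107b and best correlated with the splicing factor gene Prpf18, they averaged 1.09 ± 0.276 and 0.583 ± 0.0828 (adjusted p = 0.00177). Neither Celf2 (1.06 SD units, limma adjusted p = 0.145) nor Fam107b (0.02 SD units, limma adjusted p = 0.903) was called. In these last 3 TAPEs the regions did not overlap, and striatum kept RNA at each.

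Other TAPEs with the smallest p lay far from any gene start. At chr9:11778285-11781371, 440 kb from Uxs1, an enzyme of nucleotide sugar synthesis, cortex had 0.429 ± 0.112 and striatum 0.0233 ± 0.0184 CPKM (SD, n = 3 and 4), 18.4 times as much. At chr11:38873452-38874789, 147 kb from Zfp600, the means were 0.668 ± 0.177 and 0.0563 ± 0.0539. At chr10:478791-481136, nearest to the transporter Abcc1, they were 0.529 ± 0.121 and 0.0361 ± 0.0311. Abcc1 went the other way, lower in cortex, at -2.03 SD units, SE 0.22, limma adjusted p = 0.000391. Parn, a poly(A) ribonuclease gene 981 kb off, was picked for the highest deposited correlation (0.87). It was higher in cortex by 1.93 SD units (limma adjusted p = 0.00296), which that choice favours.

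On the striatal side the smallest adjusted p was at chr8:62274612-62275990, 8035 bp upstream of Rpp25, which encodes a subunit of the RNase P and RNase MRP complexes. There CPKM was 0.163, 0.160 and 0.140 in the cortical libraries and 1.44, 1.37, 1.34 and 1.58 in the striatal ones. Every striatal library was above every cortical one by a wide margin, and striatum had 9.29 times as much (log2 difference -2.86, SE 0.17, limma adjusted p = 2.81e-11). Hippocampus was at 0.146 ± 0.0607 (SD, n = 3), like cortex. Rpp25 had a deposited correlation of 0.95 with this TAPE and was lower in cortex, at -2.23 SD units, SE 0.18, limma adjusted p = 0.000122. The largest difference of all was at chr4:4943207-4944903, 471 kb from Dpp6, an auxiliary subunit of A-type potassium channels. At it CPKM was 0.00945, 0.00813 and 0 in the cortical libraries and 0.560, 0.629, 0.722 and 0.672 in the striatal ones. The 2 cortical reads against 244 striatal ones left it near absent in cortex (log2 difference -3.64, SE 0.25, limma adjusted p = 2.51e-10), and no hippocampal library held a read. Dpp6 was lower in cortex, at -2.36 SD units, SE 0.19, limma adjusted p = 0.000121. A pair of neighbouring TAPEs had Esrrg, an orphan nuclear receptor of the oestrogen-related family, as both the nearest and the best correlated gene (deposited r of 0.97 and 0.91). At chr13:106109493-106111927 striatum averaged 0.835 ± 0.122 and cortex 0.170 ± 0.0360, and at chr13:106108124-106109300 0.451 ± 0.117 and 0.0298 ± 0.0404 (SD, n = 4 and 3). The profile of Esrrg could not be recovered, so its own difference is not given.

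Of the 9 tested TAPEs nearest to a striatal transcription factor 6 were higher in striatum (4 of them nearest to Mn1), as were 1 of 2 nearest to genes of medium spiny neuron signalling and 1 of 2 nearest to interneuron genes, and those not named were not called. Over all tested TAPEs 12.7% were higher in striatum. Ppp1r1b encodes DARPP-32, the dopamine-regulated phosphatase inhibitor of medium spiny neurons. At chr10:86299901-86301386, 3084 bp from its start, CPKM was 0.0647, 0.0371 and 0.0600 in the cortical libraries and 0.415, 0.244, 0.337 and 0.291 in the striatal ones, 5.96 times as much in striatum (log2 difference -1.83, SE 0.27, limma adjusted p = 2.87e-05, deposited r with Ppp1r1b = 0.94). Sp9 is a zinc finger factor of striatal progenitors and immature medium spiny neurons. At chr3:59972614-59974611, 8347 bp from it, CPKM was 0, 0.0276 and 0.00743 in the cortical libraries and 0.150, 0.182, 0.138 and 0.0951 in the striatal ones (log2 difference -1.64, SE 0.31, limma adjusted p = 0.000528, deposited r = 0.91). Gsx2, a homeobox factor of the lateral ganglionic eminence, had a TAPE at chr14:35660064-35662186, 8416 bp upstream. In it CPKM was 0.0453, 0.0260 and 0.0630 in the cortical libraries and 0.232, 0.209, 0.146 and 0.155 in the striatal ones (log2 difference -1.32, SE 0.30, limma adjusted p = 0.00225). The Sp9 and Gsx2 promoters are printed above. Maf, a factor of interneurons of medial origin, had a less transcribed TAPE at chr19:47866137-47867929, 330 kb away. Striatum averaged 0.107 ± 0.0223 and cortex 0.0230 ± 0.0199 there, and the call (adjusted p = 0.0102) was lost without cortical replicate 2, at an adjusted p of 0.0768. Mn1, a transcriptional coactivator gene, was nearest to 4 striatum-higher TAPEs of 6 tested. The one at chr12:51001616-51003380 lay 248 kb from Mn1, with a deposited r of 0.39, and correlated best with Hps4 (r = 0.69), 688 kb away. This TAPE had 0.0913 CPKM in striatal replicate 4 and 0.235 to 0.254 in the other 3, against 0.0182, 0 and 0.0505 in cortex. Of the other 3 TAPEs nearest to Mn1, 2 lost their call without some single libraries, cortical replicate 2 among them. At the named TAPEs of Sp9, Gsx2, Mn1 and Dpp6 resting cortex, KCl-treated cortex and resting hippocampus each averaged under 0.05 CPKM. At that of Ppp1r1b they averaged 0.0539, 0.0379 and 0.0355. These may be among the TAPEs that passed the filter only through striatum and so had to be high there.

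At other highly transcribed striatum-higher TAPEs the difference was smaller. At chr10:54009746-54012379, 115 kb from Gas7, CPKM was 0.633, 0.612 and 0.649 in the cortical libraries and 1.46, 1.39, 1.47 and 1.46 in the striatal ones (log2 difference -1.13, SE 0.14, limma adjusted p = 3.16e-06), and hippocampus at 1.29 ± 0.140 (SD, n = 3) was near striatum. Its nearest gene moved the other way. Gas7, a cytoskeletal adaptor of neurons, was higher in cortex by 2.39 SD units, SE 0.18, limma adjusted p = 0.000116. Myh2, a myosin heavy chain gene 297 kb off, had a deposited correlation of 0.91 and was lower in cortex, at -2.38 SD units (adjusted p = 9.18e-05). At chr3:80968923-80972016, near Creb3l1, striatum averaged 1.21 ± 0.135 and cortex 0.726 ± 0.0948 (adjusted p = 0.00165). Creb3l1 was not called (-0.11 SD units, limma adjusted p = 0.714). The last 2 TAPEs were named for their small p. At chr18:16433999-16436453, 2865 bp from MGC116121, striatum and cortex averaged 0.480 ± 0.0933 and 0.0510 ± 0.0314, and at chr4:23678988-23682293, near Tex47, 0.554 ± 0.0747 and 0.0890 ± 0.0161 (SD, n = 4 and 3).

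**Figure D2:**
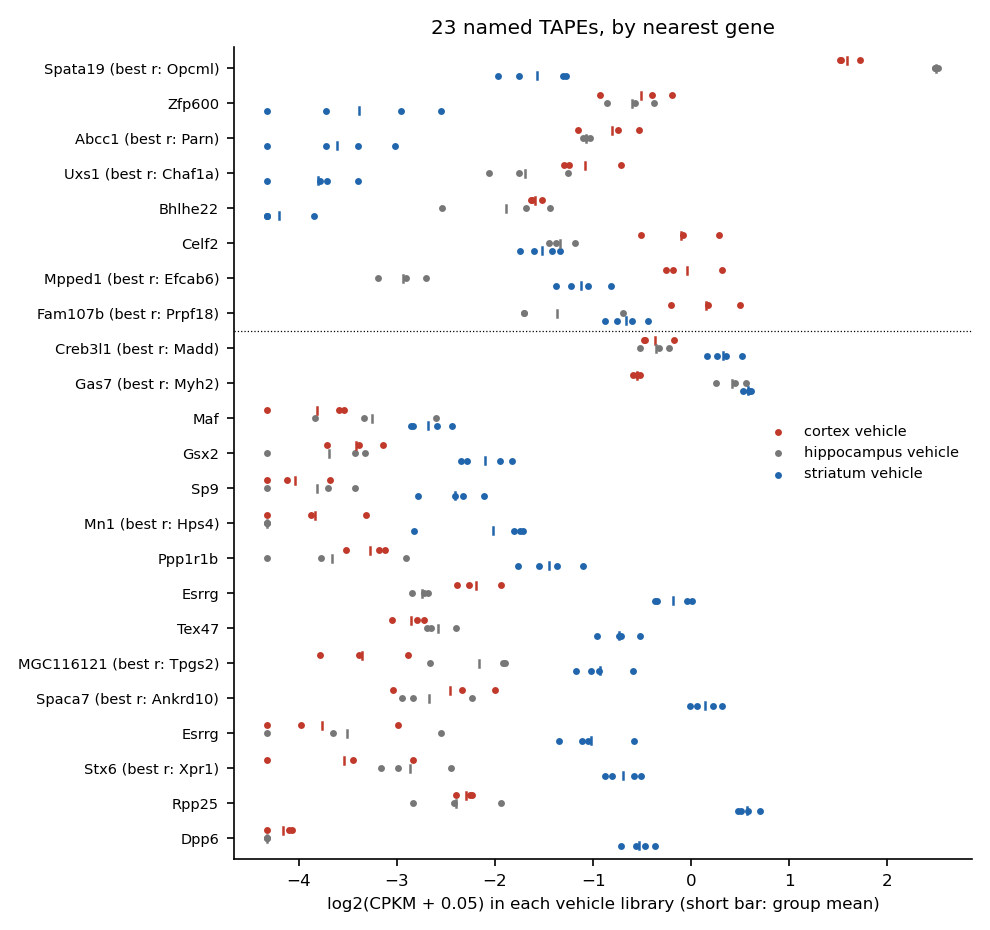
Points are log2(CPKM + 0.05) in each vehicle library of cortex (red, n = 3), hippocampus (grey, n = 3) and striatum (blue, n = 4) at the 23 named TAPEs, with a short bar at the group mean. Rows carry the nearest gene and, where another gene had the highest deposited correlation (best r), that gene, and the dotted line parts the TAPEs higher in cortex (above) from those higher in striatum (below), in all of which cortex and striatum do not overlap.

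Some called TAPEs of one direction lay close together. With gaps of at most 100 kb, 105 of the cortex-higher TAPEs fell into 31 runs of at least 2, and 63 of the striatum-higher TAPEs into 25. The share of all tested TAPEs in such runs was not counted. These counts therefore do not show that called TAPEs lie closer together than others. TAPEs in a run share their surroundings and are not independent of one another. A tight group was found after its values were seen, at chr2:5552233-5565145, 16.4 to 26.5 kb from Nr2f1, the orphan nuclear receptor COUP-TFI that patterns cortical areas. All 4 tested TAPEs there were higher in cortex. The CPKM summed over them was 0.693, 0.588 and 0.666 in the cortical libraries and 0.107, 0.0635, 0.0535 and 0.0775 in the striatal ones. Hippocampus, at 0.801, 1.04 and 1.11, was above cortex. Nr2f1, whose promoter is printed above, was the best correlated gene of all 4 (deposited r 0.73 to 0.86), lay within 5 kb before 1 of them, and was higher in cortex by 2.10 SD units, SE 0.13, limma adjusted p = 9.18e-05.

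A run of 7 cortex-higher TAPEs, of 9 tested, spanned chr11:15721476-15860785, from which the cluster of microRNA genes Mir99a, Mirlet7c1 and Mir125b2 is the nearest annotated feature for most. Mature microRNAs of this cluster, from RefSeq (GRCr8, chr11, plus strand), are shown 5′ to 3′ with the seed (bases 2 to 8), which sets target pairing, in capitals. None shares its seed with another.
rno-miR-99a-3p: cAAGCUCGuuucuaugggucug
rno-let-7c-5p: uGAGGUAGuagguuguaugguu
rno-miR-125b-5p: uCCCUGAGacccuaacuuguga
rno-miR-125b-2-3p: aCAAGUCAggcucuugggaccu
The CPKM summed over them was 1.83, 1.61 and 1.91 in the cortical libraries and 0.458, 0.551, 0.550 and 0.488 in the striatal ones, and hippocampus, at 1.5, 1.64 and 1.76, was near cortex. All cortical libraries were above all striatal ones. Mir99a was the nearest gene of 6 of the TAPEs, 194 to 299 kb away. The profiles of the microRNA genes were not called, at 0.18 SD units, SE 0.30, limma adjusted p = 0.647 for Mir99a and 0.06 SD units, SE 0.47, limma adjusted p = 0.931 for Mirlet7c1. Total RNA libraries of this kind count reads from the precursor locus and do not measure the mature strands printed here. Without 1 library at a time at least 5 of the 7 stayed called.

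Other long runs lay on chr7 beside genes known only by locus numbers. At chr7:22361815-22396688 all 9 tested TAPEs were higher in cortex, within 34.9 kb. The CPKM summed over them was 3.57, 2.46 and 3.56 in the cortical libraries and 1.13, 0.954, 1.18 and 1.16 in the striatal ones. Hippocampus, at 3.08 ± 0.175 (SD, n = 3), was like cortex. Without cortical replicate 1 or 3, 6 of the 9 stayed called, the fewest for any 1 library left out. The nearest gene, LOC300308, was 618 kb or more away and went the other way, lower in cortex, at -2.0 SD units, SE 0.55, limma adjusted p = 0.0202. A pair of runs of 8 and 7 TAPEs at chr7:452004-539747 and chr7:667497-738296 shared LOC102554748 as nearest gene, which was not called (0.39 SD units, adjusted p = 0.107). Their summed CPKM averaged 2.36 ± 0.433 and 2.05 ± 0.344 in cortex and 0.816 ± 0.171 and 0.639 ± 0.190 in striatum (SD, n = 3 and 4). Not every TAPE inside them passed, since 15 were tested in the first and 10 in the second, and without cortical replicate 1 or 3 the calls came to 5 of 8 and 6 of 7. Chr7 as a whole held 34 cortex-higher and 7 striatum-higher TAPEs of 174 (19.5% and 4.02%), and chr1 18 and 42 of 203 (8.87% and 20.7%). Chosen after their values were seen, 4 TAPEs within 36.9 kb of Nfia, a factor of astrocyte development, summed to 0.702 ± 0.0602 in cortex and 0.238 ± 0.0369 in striatum, though as few as 1 of them stayed called without 1 library (cortical replicate 1), and 5 near Celf2 to 2.34 ± 0.555 and 0.798 ± 0.111 (3 stayed called without cortical replicate 3, and more without any other library). Celf2 itself was not called.

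The largest striatal run held 5 TAPEs, all those tested at chr16:82477815-82614936. The CPKM summed over them was 0.123, 0.266 and 0.247 in the cortical libraries and 1.95, 2.05, 1.81 and 2.26 in the striatal ones. Hippocampus was at cortical levels, 0.140, 0.203 and 0.122. The best correlated gene of all 5 was Ankrd10, an ankyrin repeat gene 592 to 727 kb away (deposited r 0.85 to 0.98), lower in cortex, at -2.05 SD units, SE 0.18, limma adjusted p = 0.000172. The nearest gene, Spaca7, was not called (-0.77 SD units, adjusted p = 0.458). All 5 stayed called without any 1 library. At chr13:72860818-72872981 all 4 tested TAPEs were higher in striatum, with a summed CPKM of 1.44, 1.26, 1.24 and 1.46 there and 0.143, 0.0655 and 0.106 in cortex. They begin 7.85 kb past the end of the syntaxin gene Stx6, which was slightly higher in cortex (0.62 SD units, SE 0.16, limma adjusted p = 0.0148), while the phosphate exporter gene Xpr1, best correlated with the TAPE at chr13:72860818-72862246 (deposited r 0.93), was lower in cortex, at -1.61 SD units (adjusted p = 0.000141).

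Both other striatal runs of 4 lay on chr1 and had imprinted genes among their nearest or best correlated genes. At chr1:195691603-195716656 the summed CPKM was 1.94, 1.91, 1.93 and 2.22 in striatum and 0.931, 0.783 and 0.982 in cortex. The gene nearest to all 4 TAPEs, LOC691716, was 381 to 403 kb away and was not called (-0.19 SD units, limma adjusted p = 0.790). For 2 of these TAPEs the best correlated gene was Snrpn, a splicing protein gene expressed from the paternal copy, 596 to 604 kb away, with a deposited r of only 0.44 and 0.45, and Snrpn was lower in cortex, at -1.93 SD units, SE 0.20, limma adjusted p = 0.000283. At chr1:70054102-70083168 the sums were 0.994, 0.874, 0.786 and 1.00 in striatum and 0.394, 0.311 and 0.435 in cortex. The nearest gene of 3 was Usp29, an imprinted deubiquitinase gene, lower in cortex, at -2.06 SD units, SE 0.21, limma adjusted p = 0.000319, and the best correlated of 3 was Zim1, an imprinted zinc finger gene, also lower in cortex, at -1.25 SD units (adjusted p = 0.00153). Without 1 library at a time as few as 2 of 4 stayed called at Usp29 and 3 of 4 at the other run. The allele of origin was not measured.

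To ask whether genes beside a TAPE differed the same way, each TAPE was set against the gene whose start is nearest. Gene levels entered as profiles recovered from the deposited TAPE and gene correlations, in SD units over the 19 libraries, which carry a direction and a test but no level and no fold. Of 16171 genes, 24.6% were higher in cortex and 27.1% higher in striatum. Among the cortex-higher TAPEs 98 of 228 (43.0%, 95% Wilson interval 36.7 to 49.5) had a nearest gene that was higher in cortex and 33 (14.5%) one that was higher in striatum, against 26.6% and 28.9% for all tested TAPEs. Among the striatum-higher TAPEs 110 of 229 (48.0%, 41.6 to 54.5) had a nearest gene higher in striatum and 33 (14.4%) one higher in cortex, against 28.9% and 26.6%. The intervals cover counting error only, and several TAPEs can share a gene. Counting each gene once, 72 of 152 genes beside cortex-higher TAPEs (47.4%) and 98 of 197 beside striatum-higher TAPEs (49.7%) shared the direction, where 28.4% and 29.1% of all nearest genes were higher in cortex and striatum. Both measures come from the same libraries.

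The share was largest for TAPEs close to a start site. Under 10 kb, 17 of 25 cortex-higher TAPEs (68.0%) and 31 of 48 striatum-higher TAPEs (64.6%) had a gene of the same direction, against 28.9% and 30.1% of all tested TAPEs that near. At 100 kb or more it was 45 of 113 (39.8%) and 29 of 73 (39.7%), against 27.3% and 28.7%. The difference between distances was not tested.

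**Figure D3:**
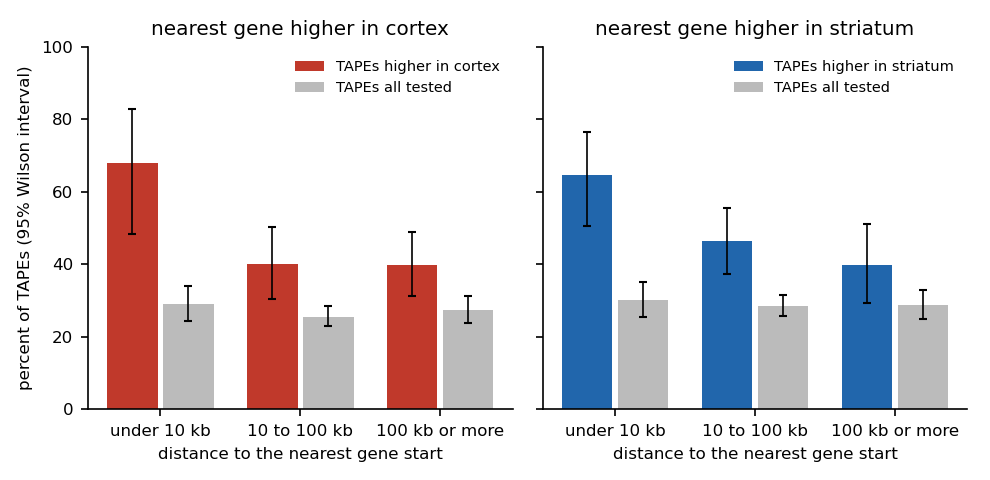
Bars give the percent of TAPEs whose nearest gene was called higher in cortex (left) or in striatum (right), by distance to that gene's start, for TAPEs called in that direction (coloured) and for all tested TAPEs (grey), with 95% Wilson intervals. Coloured bars stand above grey ones in each distance class, and most so under 10 kb, at 68.0% against 28.9% in cortex and 64.6% against 30.1% in striatum.

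Cortex-higher TAPEs lay in gene-poorer surroundings than striatum-higher ones. Cortex-higher TAPEs had a median of 7 genes within 1 Mb, against 15 for striatum-higher TAPEs and 14 for all tested. Their nearest start was at a median of 95.8 kb, against 45.1 and 40.6 kb. The body of a gene lay within 5 kb of 29 cortex-higher TAPEs (12.2%) and 56 striatum-higher ones (23.6%), against 21.5% of all, and 8.02%, 14.8% and 13.8% lay within 5 kb past a gene's end, where RNA running on from the gene and enhancer RNA cannot be told apart. Median lengths were close, at 2124, 1937 and 2006 bp. These are descriptions, without a test, and TAPEs of a shared locus count separately in them. LOC102554748 was nearest to 15 of the cortex-higher TAPEs and LOC300308 to 10. The nearest gene was also the best correlated one for 90 (38%) of the cortex-higher, 57 (24.1%) of the striatum-higher and 19.3% of all tested TAPEs, whose windows hold different numbers of genes to choose from.

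Gene profiles followed both sides of the telencephalon. Of 16 pallial transcription factors 15 were higher in cortex, with a median difference of 1.88 SD units, where the median over all genes was -0.06. Over all tested genes 24.6% were higher in cortex and 27.1% higher in striatum. Tbr1, a factor of deep-layer corticothalamic neurons, differed by 2.30 SD units, SE 0.13, limma adjusted p = 9.18e-05, Emx1, a pallial homeobox factor, by 2.27 SD units, and Neurod6 by 2.13 SD units. Cux1 was the exception, lower in cortex, at -1.10 SD units, SE 0.21, limma adjusted p = 0.00414, while its paralogue Cux2, an upper-layer factor, was higher by 1.16 SD units. Eomes was called by a small margin (0.67 SD units, SE 0.21, limma adjusted p = 0.0354). Of the 10 tested TAPEs nearest to one of these factors 3 were higher in cortex and 0 in striatum, against 12.7% of all tested TAPEs in each direction. Of 10 genes that serve glutamatergic neurons 9 were higher in cortex, among them the vesicular glutamate transporters Slc17a7 (0.88 SD units) and Slc17a6 (0.52 SD units) and the peptide gene Cck (2.20 SD units). Their median difference was only 0.59 SD units, with hippocampal library means of 0.61 to 0.68 that stood above the -0.02 to 0.18 of cortex. Nptx1 was not called (0.21 SD units, SE 0.12, limma adjusted p = 0.204), though its values did not overlap between the regions. They were -0.619 to -0.612 in cortex and -0.826 to -0.811 in striatum. The calls of Nrn1 and Crym were lost without any 1 of 5 libraries (cortical replicate 1 or any striatal replicate).

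On the striatal side 14 of 16 tested transcription factors were higher in striatum and 1 in cortex (median -1.77 SD units), against 27.1% and 24.6% of all tested genes. The homeobox factors Dlx1, Dlx2 and Dlx5 differed by -2.03, -1.95 and -1.22 SD units, Ebf1, a factor of direct-pathway neurons, by -2.19 SD units, SE 0.15, limma adjusted p = 9.71e-05, the retinoic acid receptor Rarb by -2.13 SD units and Six3 by -1.93 SD units. Of 16 genes of medium spiny neuron signalling 12 were higher in striatum, with the dopamine receptor Drd2 at -1.96 SD units, the adenosine receptor Adora2a at -2.14 SD units, the prodynorphin gene Pdyn at -1.84 SD units and Ppp1r1b at -1.98 SD units. Higher in cortex instead were Tac1, the substance P precursor (0.89 SD units, SE 0.17, limma adjusted p = 0.00481), Ptpn5, the phosphatase STEP (2.57 SD units), and Rgs14, a regulator of G protein signalling (1.66 SD units). All 4 genes of GABA synthesis and transport were higher in striatum, Gad1 by 1.88 SD units and Slc32a1, the vesicular GABA transporter, by 2.01 SD units. So were 6 of 8 interneuron genes, such as Lhx6, a factor of interneurons of medial origin (-2.27 SD units), Sst (-1.74 SD units) and Pvalb (-2.31 SD units). Dlx6, Isl1, Zfp503, Adcy5, Nkx2-1, Vip and Erbb4 had no profile, nor did Zbtb20, Fibcd1, S100b, Aif1, C1qa, Pecam1 and Pax6 of the lists that follow.

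Glial and dividing cell markers moved with the comparison, where 24.6% of all tested genes were higher in cortex and 27.1% in striatum. Of 7 tested astrocyte genes 6 were higher in cortex, and the mean profile of the tested genes was 0.61 to 0.66 over the cortical and -1.11 to -1.01 over the striatal libraries. Gja1, the astrocyte gap junction protein connexin 43, differed by 2.34 SD units, SE 0.13, limma adjusted p = 9.18e-05. Gfap was not called (0.11 SD units, limma adjusted p = 0.476), though its values did not overlap between the regions either. Of 8 oligodendrocyte lineage genes 5 were higher in cortex, those of precursors (Olig1, Olig2, Sox10, Pdgfra and Cspg4), and the others, the myelin genes Mbp and Mog among them, were not called, and the mean profile of the tested genes was 0.18 to 0.81 over the cortical and -0.90 to -0.37 over the striatal libraries. Of 5 progenitor genes Mki67, Top2a and Hes5 were higher in cortex (Mki67 by 2.26 SD units, SE 0.32, limma adjusted p = 0.00111) and Sox2 in striatum, and the mean profile of the tested genes was 0.37 to 0.69 over the cortical and -0.72 to -0.24 over the striatal libraries. Microglial genes gave 1 call of 4 (Itgam, higher in cortex), a share near that of all tested genes, and the mean profile of the tested genes was -0.14 to 0.85 over the cortical and -0.75 to 0.28 over the striatal libraries. The 3 endothelial genes tested were not called, and the mean profile of the tested genes was -0.56 to -0.15 over the cortical and -0.73 to -0.70 over the striatal libraries. Profiles have no zero, so it cannot be said which markers were absent. Of 6 pan-neuronal genes 3 were higher in cortex and 1 in striatum (Snap25, whose call was lost without any 1 of 6 libraries), and the mean profile of the tested genes was -0.14 to 0.37 over the cortical and -1.14 to -0.47 over the striatal libraries. Tubb3, a neuronal tubulin, was higher in cortex by 2.42 SD units and Stmn2, a regulator of microtubules, by 1.93 SD units. The part of these other cells in the TAPE differences was not tested. Some called TAPEs lay beside such genes. The one at chr11:31396294-31398827, 8046 bp from the start and 3404 bp past the end of Olig2, the defining factor of the oligodendrocyte lineage, had 0.399, 0.261 and 0.358 CPKM in cortex and 0.160, 0.143, 0.136 and 0.184 in striatum (log2 difference 0.91, SE 0.24, limma adjusted p = 0.00800, lost without cortical replicate 1 at 0.0559). The one at chr3:141417453-141420647, 7880 bp from Nkx2-2, a factor of the same lineage, averaged 0.311 ± 0.0392 and 0.105 ± 0.0251 (SD, n = 3 and 4).

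Most activity-regulated genes were not called at rest, where 24.6% and 27.1% of all tested genes were higher in cortex and in striatum. Of 13 tested, Bdnf, a neurotrophin, was higher in cortex (0.88 SD units, SE 0.12, limma adjusted p = 0.00110) and Sik1, a kinase, higher in striatum (-0.54 SD units, SE 0.14, limma adjusted p = 0.0148), and the other 11 were not called, with Fos at -0.23 SD units (adjusted p = 0.176). Among those not called, Fos, Fosb, Junb, Arc, Npas4, Egr2, Egr4 and Nr4a1 did not overlap between the regions and were higher in striatum. Nr4a2 did not overlap and was higher in cortex, and Egr1 and Dusp1 overlapped. For Fos the values were -0.975 to -0.913 in cortex and -0.792 to -0.617 in striatum. Over all 16171 tested genes 4622 did not overlap and were higher in striatum, and 4275 were so in cortex. The SD of these profiles takes in the KCl libraries, so a small SD difference can hide a large ratio at rest. Of 8 tested TAPEs nearest to activity-regulated genes 2 were higher in striatum and 0 in cortex, against 12.7% of all tested TAPEs in each direction. They were 1 of the 3 nearest to Fos and the only one nearest to Arc. At chr6:109261263-109264039, 37.8 kb from Fos, CPKM was 0.0115, 0.00993 and 0.0107 in the cortical libraries and 0.222, 0.152, 0.168 and 0.168 in the striatal ones (log2 difference -1.90, SE 0.30, limma adjusted p = 6.64e-05). Under KCl the same TAPE averaged 0.628 in striatum and 0.0951 in cortex. The TAPE 6659 bp from Arc was also higher in striatum (0.0809 ± 0.0462 against 0.00940 ± 0.00816, adjusted p = 0.0206), but lost the call without any 1 of 4 libraries, at an adjusted p of up to 0.101. Of the hippocampal genes Prox1, Lef1 and Grik4, Lef1 alone was called, by a small margin (0.39 SD units, SE 0.13, limma adjusted p = 0.0387).

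**Figure D4:**
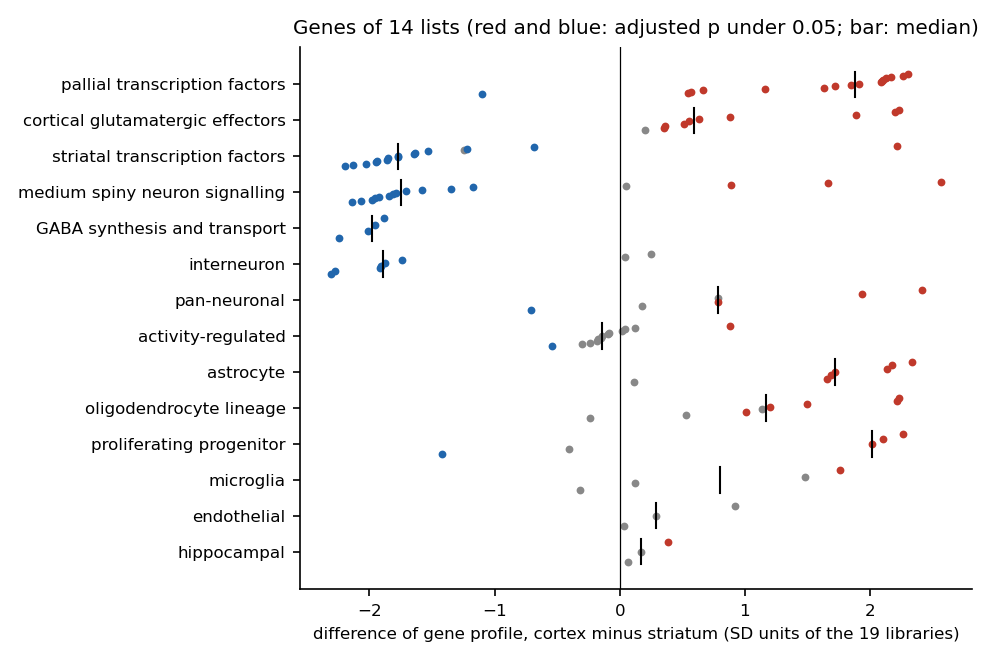
Each point is 1 tested gene of 14 lists, placed by the difference of its profile between resting cortex and resting striatum in SD units of the 19 libraries, red where higher in cortex and blue where higher in striatum at an adjusted p under 0.05, grey otherwise, with a bar at the list's median. Pallial factors (median 1.88), astrocyte genes (1.72) and proliferation genes (2.02) lie mostly to the right, and striatal factors (-1.77), medium spiny neuron genes (-1.75) and GABA genes (-1.98) to the left.

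Genes with both a large profile difference and a called TAPE of the same direction nearest to them were named by rule, 8 on either side. On the cortical side they were Gng12, Cyp7b1, Rgma, Dtx4, Wscd1, Mcc, Nkx2-2 and Cdh20, at differences of 2.35 to 2.48 SD units. Rgma is a guidance molecule that repels axons, and its TAPE at chr1:134748249-134750754 averaged 0.271 ± 0.0437 in cortex and 0.112 ± 0.0237 in striatum. At chr13:24765806-24767889, near the cadherin gene Cdh20, the means were 0.180 ± 0.0385 and 0.0174 ± 0.0119 (log2 difference 1.78, SE 0.31, limma adjusted p = 0.000196). At chr1:228760195-228763924, 6193 bp from Dtx4, a ubiquitin ligase that regulates Notch, they were 0.735 ± 0.164 and 0.341 ± 0.0248 (SD, n = 3 and 4). The TAPE of Mcc lost its call without any 1 of 3 libraries. On the striatal side they were MGC116121, Tnrc6a, Azin2, Dpp6, Cox7a2l, Qsox2, Mir2985 and Adarb1, at -2.50 to -2.23 SD units. Adarb1 encodes the RNA-editing enzyme ADAR2, and its TAPE at chr20:11952984-11955321 averaged 0.198 ± 0.0418 in striatum and 0.0777 ± 0.0142 in cortex (adjusted p = 0.0144, lost without cortical replicate 1 at 0.0604). Tnrc6a is a partner of Argonaute in microRNA silencing, and its TAPE had 0.239 ± 0.0636 and 0.0946 ± 0.0291 (SD, n = 4 and 3). The calls of the TAPEs of Azin2 and Cox7a2l, and of 1 of the 2 of Mir2985, were lost without some single libraries.

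Hippocampus, pallial like cortex, gives another level for each side, as a description. Its libraries entered the mean that chose the tested TAPEs. At 53 cortex-higher and 105 striatum-higher TAPEs hippocampus and the lower region together averaged under 0.05 CPKM. How near hippocampus lay to either region was therefore not independent of that choice. At the cortex-higher TAPEs the median CPKM was 0.190 in cortex and 0.0531 in striatum, with 0.149 in hippocampus, and hippocampus lay nearer to cortex at 165 and nearer to striatum at 72. It was above cortex at 88, the TAPE near Opcml and the Nr2f1 group among them. At the striatum-higher TAPEs the medians were 0.217 in striatum, 0.0660 in hippocampus and 0.0539 in cortex, and hippocampus lay nearer to cortex at 206 and nearer to striatum at 31. At the TAPE of Mpped1, by contrast, the hippocampal mean was 0.0820.

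The KCl-treated libraries of both regions did not enter the test between the resting regions, but they did enter the mean over 19 libraries that chose the tested TAPEs, the SD units of the gene profiles and the deposited correlations. In the KCl libraries 185 TAPEs were higher in cortex (9.89% of those tested) and 162 higher in striatum (8.66%). Of the 237 cortex-higher TAPEs 132 (55.7%) were called again, and they made up 71.4% of the KCl calls. Of the 237 striatum-higher ones 114 (48.1%) were called again, 70.4% of the KCl calls. 233 of the cortex-higher and 227 of the striatum-higher TAPEs kept their sign. The median size of their difference was 1.12 and 0.91 on the log2 scale. Named TAPEs called again differed by 1.88 at Bhlhe22 (adjusted p = 0.00281), -2.67 at Rpp25 (3.17e-06), -3.46 near Dpp6 (3.17e-06) and -1.75 at Ppp1r1b (0.000793). Not called under KCl were those near Gsx2 (-1.01, 0.0669), Mn1 (-0.84, 0.111) and Creb3l1 (-0.43, 0.0936). Whether the difference itself changed with KCl was not tested.

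**Figure D5:**
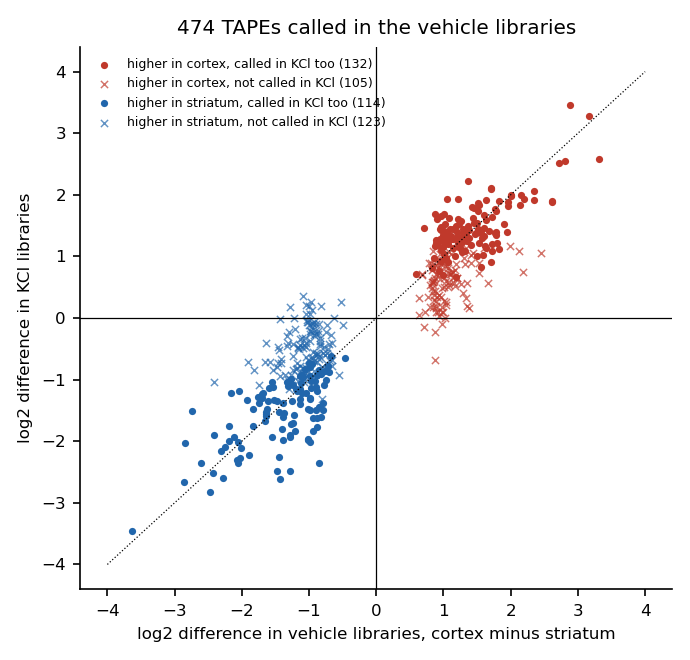
The 474 TAPEs called between the resting regions are placed by their log2 difference, cortex minus striatum, in the vehicle libraries (horizontal) and in the KCl libraries (vertical), with filled points where the KCl libraries gave the same call and crosses where they gave none. Points run along the dotted line of equal differences, 233 of 237 red ones above 0 and 227 of 237 blue ones below it.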

How the data were processed

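Read counts per TAPE were deposited by the authors as CPKM, which is RPKM by another name (reads scaled to length and library total), in 1 table of 19 libraries, with a score per TAPE and gene pair, the deposited Pearson correlation of the TAPE and the gene over all libraries or those of 1 region. Per the labels and the methods, 75 bp paired reads of total RNA were trimmed with Trim Galore 0.4.5, aligned with STAR to Rn6 (Ensembl annotation), merged with SAMtools 1.9 and counted with SeqMonk, both strands together and duplicates included. TAPEs were defined by the authors on pooled open chromatin and RNA, so these libraries helped to choose the TAPEs.

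TAPEs with a mean of at least 0.05 CPKM over the 19 libraries were tested with limma 3.58.1 (R 4.3.3, lmFit and eBayes with trend) on log2(CPKM + 0.05) over the 7 vehicle libraries, with Benjamini-Hochberg adjustment over all tested TAPEs and a threshold of 0.05. Recovered reads were whole in 100% of values (tolerance 0.05 of a read), and limma voom on them called 441 TAPEs. Gene profiles were solved from the deposited correlations for 16797 of 17715 genes, and 626 of these were constant over the 7 libraries and not tested. They were tested with limma without trend, which draws the SE of each gene towards a common value. A gene whose SD units are mostly taken up by hippocampus or KCl can so miss a call although its regions do not overlap. Each fit was tested on simulated data. Replicates correlated at 0.771 to 0.790 within a region over TAPEs (log2 values). The chi-square per degree of freedom between the reads of replicates was 2.24 to 2.66. Counting both mates of a read pair would raise it by itself, so how far replicates differed beyond sampling noise was not settled. Reads counted so stand for fewer fragments. At a median of 12 reads per library small differences could not be detected, and intervals cover counting error only.

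Named TAPEs were, on each side and among those whose regions did not overlap, the 8 with the smallest adjusted p, the 4 with the highest level, the best TAPE nearest to each gene of 6 lists, and the 3 longest runs (ties kept). Named genes were those of 14 lists and the 8 per side with the largest difference beside a called TAPE. All others named were chosen after their values were seen. Members, lists and rules were chosen with earlier results of these data known. Alternatives were other pseudocounts, filters, centring, voom, a fit of all 19 libraries, leaving out each library, and other rules for the nearest gene. Some genes and TAPEs that these rules name are not reported here, although they stay in the fits and the counts.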

Additional observations from a re-analysis of the deposited data

Results flagged for a closer look

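In 11 of 154 groups of 4 striatal libraries (7.14%), 1 library stood apart, with a gap to its nearest neighbour above Dixon's critical share of the group's range, which chance passes at a rate of about 0.05. At the TAPE upstream of Bhlhe22 (chr2:102680053-102681830) replicate 6 held the only striatal reads (gap 1), and at the TAPE near Mn1 (chr12:51001616-51003380) replicate 4 was low (gap 0.882). Among gene profiles the gaps were 1 for Neurod1 (replicate 2), 0.980 for Neurog2 (replicate 4), 1 for Emx1 (replicate 8), 1 for Fezf2 (replicate 6), 0.835 for Dlx1 (replicate 2), 0.867 for Slc32a1 (replicate 4), 0.901 for Mog (replicate 4), 1 for Cx3cr1 (replicate 6) and 1 for Csf1r (replicate 6). A gap of 1 means that the other 3 libraries had equal values. The cortical groups of 3 were not examined in this way.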

How the results depend on the processing

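No paired analysis was possible because the vehicle groups of cortex and striatum share only replicate number 2. Of 474 TAPEs called at rest (237 higher in each region), 139 (77 and 62) were called with no filter on low values, over 27538 TAPEs, and 283 (143 and 140) with a minimum of 0.1 CPKM, over 867, so that these alternatives differ in how many TAPEs were tested. Other pseudocounts, centring, voom, the fit of all 19 libraries and a filter over the vehicle libraries gave 417 to 507 calls, split 253 and 207 after centring and 212 and 295 with the filter over the vehicle libraries. Without 1 library at a time the calls numbered 349 to 405 (167 to 205 higher in cortex and 165 to 213 in striatum). The 347 KCl calls (185 and 162) became 59 (23 and 36) with no filter and 206 (118 and 88) at 0.1 CPKM, and 235 to 294 without 1 library (127 to 160 and 104 to 134, the 104 without striatum KCl replicate 7). Gene profile calls numbered 7376 to 8142 without 1 library, against 8349. The share of TAPEs whose gene went the same way was 70.6% and 82.8% for the best correlated gene, against 43.0% and 48.0% for the nearest, and that gene was picked on these libraries. Over the alternatives for named TAPEs, 331 of 341 values kept their call; those nearest to Zfp600, Fam107b, Mpped1, Celf2, Gas7, Creb3l1, Gsx2, Mn1 and Maf lost it with no filter (9 in all), and Maf also without cortex replicate 2. For genes 1008 of 1048 kept it. Differences that changed sign, none of them called, ran without 1 library from -0.51 to 0.47 SD units for Npy, -0.91 to 0.42 for Mog, -0.12 to 0.84 for Csf1r and -0.0078 to 0.042 for Dusp1. A median of 12 reads per TAPE and library limits what could be detected.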

Other observations

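The TAPEs of each direction were spread unevenly over chromosomes, as a description with no test, since neighbouring TAPEs share their surroundings. Besides chr7 and chr1, chr11 held 16 cortex-higher TAPEs of 54 tested (29.6%) and 5 striatum-higher ones, of which the run beside Mir99a made up 7 of the cortex-higher. Chr2, with the Bhlhe22 and Nr2f1 TAPEs, held 32 cortex-higher TAPEs of 146 (21.9%) and 16 striatum-higher ones. Chr13, with the striatum-higher TAPEs near Esrrg and Xpr1, held 14 cortex-higher TAPEs of 65 (21.5%) and 9 striatum-higher ones. Chr19 held 3 cortex-higher and 11 striatum-higher TAPEs of 49 (22.4% striatum-higher).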
